A study of Mus musculus with 21 samples.

Results

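Oxidative phosphorylation is carried out by 5 protein complexes of the inner mitochondrial membrane. Complexes I and II take electrons from NADH and from succinate, complex III passes them to cytochrome c, complex IV passes them on to oxygen, and complex V, the ATP synthase, uses the proton gradient that complexes I, III and IV build up. Most subunits are encoded in the nucleus and imported, while a few hydrophobic ones are encoded in mitochondrial DNA, so both genomes must supply each complex except II, which is wholly nuclear. Quiescent hematopoietic stem cells are known for a low use of this pathway, progenitors for raising it when they enter the cell cycle, and mature neutrophils for relying mainly on glycolysis. The nuclear genes of the 5 complexes (nuclear OXPHOS genes) were taken as the protein-coding genes of the GRCm38 annotation whose symbols begin with Ndufa, Ndufb, Ndufc, Ndufs, Ndufv, Uqcr, Cox4i, Cox5, Cox6, Cox7, Cox8 or Atp5, together with Sdha, Sdhb, Sdhc, Sdhd and Cyc1. Assembly factors named Ndufaf and pseudogenes were left out. This rule uses no measured value and found 86 of the 45706 genes in the count tables. By symbol, 37 were counted in complex I, 4 in complex II, 9 in complex III, 19 in complex IV (Ndufa4 included) and 17 in complex V. Ndufa4l2, a paralog of Ndufa4, was left with complex I by its symbol.

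RNA had been sequenced in bulk from 3 cell types of mice: LSK cells of the bone marrow (BM), which are lineage-negative cells positive for Sca-1 and c-Kit and hold stem and early progenitor cells, and CD11b+ myeloid cells from BM and from spleen, which magnetic columns had enriched. All mice had received poly I:C, which induces the interferon-responsive Mx promoter of the MxCre transgene. The groups of each cell type were MxCre mice (Cre transgene alone, 2 libraries), Ptpn11D61Y/+ mice (a knock-in allele kept silent by a Neo-Stop cassette, no Cre, 2 libraries) and S3-MxCre;Ptpn11D61Y/+ mice (the cassette removed by Cre, so that the SHP2 mutant is expressed, at the terminal leukemic stage called S3, 3 libraries). S3 libraries carry animal numbers: 540 and 815 occur in each cell type, 768 in LSK cells and 640 in both CD11b+ fractions. As a model the S3 group has limits: MxCre also acts outside hematopoietic cells, Cre need not recombine every cell, and the mice were sampled when terminally ill. The methods give the same number of mice for the MxCre and S3 genotypes, whereas each MxCre group analysed here holds 2 libraries and each S3 group 3. Whether a control library is 1 animal is not stated in the sources used here, so p-values measure the spread between these samples.

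Total counts per library ran from 34992610 (BM S3 815) to 104509425 (LSK Ptpn11D61Y/+ 1). Levels are given as log2 CPM, which is the count scaled to library size with TMM factors, on a log2 scale with a prior count of 2. Filtering on low counts left 83 of the 86 genes among 19555 tested. Those left out were tissue-restricted paralogs of complex IV, namely Cox8c with 0 counts in every library, Cox7b2 with at most 5 and Cox8b with at most 6. Reads were counted by a program not given in the sources used here. Of the 86 genes, 27 have exons that overlap a gene on the opposite strand, among them Ndufa2, Ndufa3, Ndufa11 and Cox6a2 (with Itgad). On the same strand 5 overlap a gene (Ndufb2, Ndufb8, Ndufb9, Atp5g2 and Atp5o). The counts of all these genes are uncertain to that extent.

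Several libraries stood apart. BM MxCre 1, spleen MxCre 1 and BM S3 815 had counts for 14885, 14641 and 14761 genes, against 17493 to 24220 in the other 18 libraries. Of the genes expressed in their cell type, 241, 142 and 77 were at 0 in these libraries. BM MxCre 2 held 2834 counts of Xist, which female cells make, and 1472 of the Y-linked Eif2s3y. BM S3 540 (2780 and 691) and spleen S3 540 (712 and 2084) held both transcripts as well, whereas LSK S3 540 had 1 count of Xist and 3829 of Eif2s3y, so it is uncertain that the 540 libraries come from 1 animal. On average over the genotypes, the labelled cell types could be seen in their markers. Itgam, which encodes CD11b, was higher in BM and spleen CD11b+ than in LSK cells (log2 fold change 3.09 and 2.84), Kit was lower (-4.53 and -3.48), and all 12 mature neutrophil markers were higher in both. The margin was narrow in some libraries. Itgam was at 151 CPM in spleen Ptpn11D61Y/+ 1, 176 in BM S3 815 and 185 in spleen S3 815, against 114 and 102 in LSK MxCre 1 and 2. Mature neutrophil markers summed to 4999 CPM in spleen Ptpn11D61Y/+ 1 and to 3255 in LSK MxCre 1. BM CD11b+ libraries also carried erythroid transcripts. The 13 erythroid markers, with Hba-a1 as the most abundant, summed to between 14823 and 224236 CPM in BM CD11b+ libraries and to between 1152 and 29877 CPM in those of the spleen, with 3 of the 13 at 0 in spleen MxCre 1 and 0 at 0 in every other library. In bulk samples, fewer cells of a type and less RNA per cell cannot be told apart.

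LSK cells had lower levels of these genes than CD11b+ cells, and the LSK libraries were much alike. The median of the 83 genes in a library lay between 5.29 and 5.44 log2 CPM in the 4 control LSK libraries and at 5.92, 5.77 and 5.77 in S3 540, 815 and 768. Among BM CD11b+ libraries these medians were 7.23 and 7.29 in MxCre, 6.63 and 6.37 in Ptpn11D61Y/+, and 7.18, 7.33 and 6.01 in S3 540, 815 and 640. Spleen CD11b+ libraries had 6.90 and 7.05 in MxCre, 6.36 and 6.78 in Ptpn11D61Y/+, and 6.98, 7.59 and 5.85 in S3 540, 815 and 640. Each CD11b+ median was thus above each control LSK median, and animal 640 gave the lowest CD11b+ value in both tissues. As a share of all counts the 86 genes took 0.73% to 1.04% in LSK, 0.751% to 1.64% in BM CD11b+ and 0.726% to 1.62% in spleen CD11b+ libraries, so that the shares of the cell types overlapped.

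**Figure D1:**
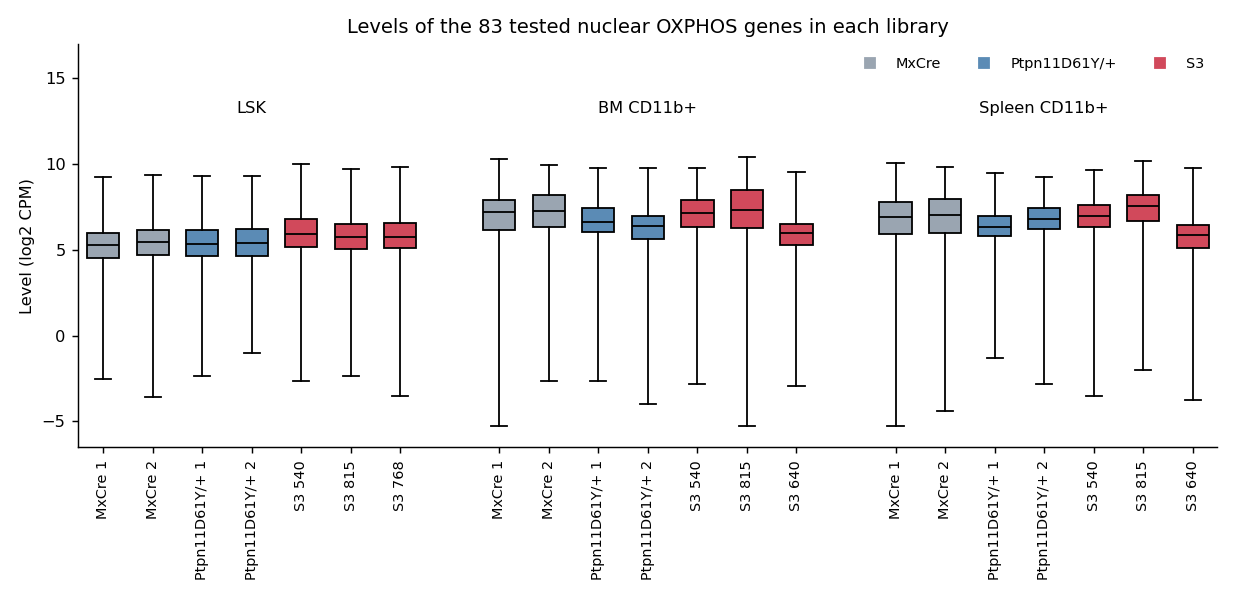
Levels (log2 CPM) of the 83 tested nuclear OXPHOS genes in each of the 21 libraries; boxes span the quartiles with the median as a line, and whiskers reach the lowest and highest gene. LSK medians lie between 5.29 and 5.92, CD11b+ medians between 5.85 and 7.59, and the 640 libraries are the lowest of the CD11b+ libraries.

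Levels were set against length to compare genes within a cell type, once per kilobase of the union of exons and, chosen after the data had been seen, once per kilobase of the transcript with the longest coding sequence. In LSK cells the leading genes per kilobase of exon were the ATP synthase alpha subunit Atp5a1 (mean 7.72 log2 CPM per kilobase), the complex IV subunit Cox8a (7.49) and the catalytic beta subunit Atp5b (7.46), and these 3 also led per kilobase of transcript, with Atp5b first (8.61), then Atp5a1 (8.07) and Cox8a (7.66). In CD11b+ cells the order depended on the length used. Per kilobase of exon Cox6a1 came first in BM (9.41) and in the spleen (9.04), and per kilobase of transcript Atp5e did (9.84 and 9.92), followed by Cox4i1 (9.72 and 9.63). Of the 83 genes tested, the lowest in each cell type by both lengths was Ndufa4l2, the hypoxia-induced paralog of Ndufa4, with -2.88 in LSK cells and -4.14 and -3.86 in the CD11b+ fractions of BM and spleen per kilobase of exon. The muscle form Cox7a1 (-0.39, 0.91 and 0.83) and the lung form Cox4i2 (0.01, -0.39 and 1.29) were also low.

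Promoters of these genes are known for sites of NRF1, of the ETS factor GABP (NRF2), of YY1 and of the ERR nuclear receptors, and these words were searched in the promoters of the genes. RefSeq promoters of GRCm38.p6, from 250 bases before to 50 bases after a gene's start, were at hand for 69 of the 86 genes (80.2%). Those with no entry included Ndufa2, Ndufa4l2, Ndufb9, Ndufs1, Sdhc, Cyc1, Uqcrb, Uqcrc2, Uqcrq, Cox4i1, Cox4i2, Cox6a2, Cox6c, Cox8c, Atp5a1 and Atp5mpl. On either strand, the NRF1 letters (GCGCA, then any base, then GCGC) were in the promoters of 17 genes (24.6%), against 7.5% of 16340 protein-coding genes with promoters of this length. The ETS letters CCGGAAG were in 16 (23.2% against 13.5%), the YY1 letters ATGGCGG in 10 (14.5% against 6.24%), the ERR letters AAGGTCA in 8 (11.6% against 4.63%) and CCAAT in 30 (43.5% against 42%). None of these words is part of another, and a match is a description of the sequence, not a site. The stretches below come from 8 genes that recur in the results, outside annotated exons, 5′ to 3′ on the strand of the gene, and capitals mark the match. The first 4 hold the NRF1 letters, Cox6a1 with 2 matches. The last 4 hold the ETS letters, read here from the opposite strand. Further matches to the words searched are not marked or lie outside these stretches.
Cox6a1, chr5:115349036-115349129, minus strand: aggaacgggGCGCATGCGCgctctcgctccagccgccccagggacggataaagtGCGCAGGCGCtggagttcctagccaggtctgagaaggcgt
Ndufa11, chr17:56717686-56717741, plus strand: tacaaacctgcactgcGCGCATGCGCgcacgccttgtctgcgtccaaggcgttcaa
Ndufs5, chr4:123718245-123718314, minus strand: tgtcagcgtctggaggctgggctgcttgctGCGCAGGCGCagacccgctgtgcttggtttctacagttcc
Sdha, chr13:74350281-74350308, minus strand: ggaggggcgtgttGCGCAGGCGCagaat
Atp5e, chr2:174464167-174464233, minus strand: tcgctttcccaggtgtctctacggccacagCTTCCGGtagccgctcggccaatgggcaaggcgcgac
Atp5l, chr9:44920918-44920984, minus strand: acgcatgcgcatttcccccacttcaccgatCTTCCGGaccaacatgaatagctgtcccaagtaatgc
Sdhd, chr9:50603859-50603909, minus strand: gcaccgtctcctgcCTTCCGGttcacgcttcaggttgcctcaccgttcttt
Uqcrh, chr4:116075072-116075110, minus strand: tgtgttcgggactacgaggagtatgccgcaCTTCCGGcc

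The comparison between cell types asked how far the genes differ between immature and myeloid cells, with each genotype given equal weight. In BM CD11b+ against LSK cells, 61 of the 83 genes were higher and 1 was lower past an adjusted p of 0.05 (quasi-likelihood F-test of edgeR, Benjamini-Hochberg over 19555 genes), against 26.8% higher and 31.6% lower among all genes tested (58.4% in either direction). Their median log2 fold change was 1.32, and that of all genes -0.17. In spleen CD11b+ against LSK cells the counts were again 61 higher and 1 lower, against 28.3% and 31.6% of all genes (59.9% in either direction), with medians of 1.30 and -0.14. The LSK libraries serve in both comparisons. For 39 genes every BM CD11b+ library lay above every LSK library (11.6% of all genes did), and for 25 genes every spleen CD11b+ library did (12.2%). The reverse held for 0 genes in BM (19.9% of all genes) and for 1, Atp5s, in the spleen (18.3%). The spleen and BM CD11b+ fractions differed in 1 of the 83 genes, 0 higher and 1 lower (6.56% and 7.4% of all genes, 14% in either direction), and the median difference was -0.09.

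Accessory subunits of complex I were among those that rose most. Of the 37 complex I genes, 30 were higher in BM and 29 in spleen CD11b+ cells. Ndufa3 (chromosome 7, 3617373 to 3620327) had a median of 4.93 log2 CPM (lowest 4.76, highest 5.30) in the 7 LSK libraries, of 7.79 (5.55, 9.54) in BM CD11b+ and of 7.29 (5.49, 9.23) in spleen CD11b+ libraries. All CD11b+ libraries were above all LSK libraries, although the CD11b+ values spread over a far wider range. The log2 fold changes were 3.08 (standard error 0.506, adjusted p = 0.000117) and 2.85 (0.501, 0.000191). Ndufa2 rose by 3.15 (0.526, 0.000134) and 2.72 (0.515, 0.000364), which is 8.9-fold and 6.59-fold, Ndufb7 by 2.86 (0.437, 6.32e-05) and 2.13 (0.424, 0.000534), and Ndufa11 by 2.30 and 1.65. The core subunits that carry out electron transfer were not alike. Ndufs1, which holds several of the iron-sulfur clusters, had medians of 5.73 (5.64, 6.13) in LSK, 5.76 (5.07, 6.04) in BM CD11b+ and 5.66 (4.88, 6.05) in spleen CD11b+ libraries. These ranges overlapped, and the log2 fold changes were -0.08 (0.165, 0.685) and -0.33 (0.166, 0.0929). Ndufv1, the NADH-binding subunit, had 0.28 and 0.02 and did not pass, while Ndufs7, which holds the last iron-sulfur cluster, rose by 0.95 (0.241, 0.00337) and 0.81 (0.24, 0.00843). Further iron-sulfur or core subunits rose too, Ndufs3 by 0.93 and 0.84, Ndufs8 by 0.92 and 1.04 and Ndufv2 by 1.80 (0.355, 0.000537) and 1.67 (0.353, 0.000864).

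Complex II is also part of the citric acid cycle, as succinate dehydrogenase, and its genes went separate ways. Sdhb, the iron-sulfur subunit, had medians of 5.85 in LSK, 7.23 in BM CD11b+ and 7.08 in spleen CD11b+ libraries and rose by 1.14 (0.22, 0.00044) and 1.21 (0.22, 0.000254). Sdhd, a membrane anchor, rose by 0.98 and 0.95. Sdha, the catalytic flavoprotein (chromosome 13, 74322254 to 74350280), had medians of 7.76, 7.58 and 7.63 with overlapping ranges, and its log2 fold changes of -0.30 (0.145, 0.086) and -0.16 (0.145, 0.342) did not pass. The values of Sdhc, the other anchor, were 0.06 and 0.40, and it did not pass either.

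In complex III, 6 of 9 genes rose in each CD11b+ fraction. Uqcrh, the hinge protein, had medians of 6.43 in LSK, 8.75 in BM CD11b+ and 8.78 in spleen CD11b+ libraries, all CD11b+ libraries were above the LSK libraries, and it rose by 2.32 (0.436, 0.000367) and 2.48 (0.439, 0.000208). Uqcrfs1, the Rieske iron-sulfur protein, rose by 0.99 and 1.10. Cyc1, cytochrome c1, and Uqcrc1, a core protein, did not pass, with -0.25 and -0.43 for Cyc1 and 0.33 and 0.08 for Uqcrc1. The gene that fell was Uqcrc2, the other core protein (chromosome 7, 120635176 to 120659524). Its median was 6.77 (6.55, 7.29) in LSK and 5.98 (3.39, 6.88) in BM CD11b+ libraries, where BM S3 815 (3.39) and BM MxCre 1 (3.61) were lowest and were also among the libraries with the fewest detected genes. Its log2 fold change was -1.15 (0.372, 0.0153) in BM and -0.74 (0.369, 0.0935) in spleen CD11b+ cells, and 0.019 in BM when the Ptpn11D61Y/+ libraries alone were compared.

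Complex IV had 13 of 16 tested genes higher in each fraction. Cox4i1, the ubiquitous form of a regulatory subunit, had medians of 7.03 in LSK, 9.47 in BM CD11b+ and 9.24 in spleen CD11b+ libraries and rose by 2.31 (0.356, 6.96e-05) and 2.27 (0.356, 7.08e-05). Cox6a1 rose by 2.68 (0.378, 3.07e-05) and 2.27 (0.371, 0.000104), Cox6b1 by 2.02 and 2.10, Cox7a2 by 2.38 and 1.95, Cox5a by 1.85 and 1.78, Cox5b by 1.5 and 1.37 and Cox6c by 1.53 and 1.67. Ndufa4 rose by 0.67 in BM only at the threshold used (adjusted p = 0.0395), with 0.58 in the spleen (0.0684), and had -0.22 in BM with scaling by library size alone. The forms restricted to other tissues were near the floor or scattered, apart from Cox6b2 in LSK cells (median 4.32, from 3.84 to 4.36). Cox6a2, the heart and muscle form, had a median of 1.38 in LSK, 3.69 in BM CD11b+ (from -0.77 to 5.87) and 1.35 in spleen CD11b+ libraries. It rose in BM by 2.36 (0.622, 0.00445), had 0.43 in the spleen, and was the gene that was lower in spleen than in BM CD11b+ cells (-1.93, standard error 0.614, adjusted p = 0.0464), with overlapping ranges. With the animal or number as a block, this gene no longer passed and Ndufv3 did (-0.47, adjusted p = 0.0441). Cox7a1 rose by 1.32 and 1.27, Cox4i2 by 1.47 in the spleen (0.615, 0.0495) with 0.28 in BM, and Cox6b2, the testis form, had 0.24 and -0.95 and did not pass. Cox7a2l, which helps to join complexes III and IV into supercomplexes, rose by 1.43 and 2.06.

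ATP synthase genes ranged from among the highest fold changes to values below 0. Atp5e, the epsilon subunit of the central stalk (chromosome 2, 174461072 to 174464105), was at 5.79 and 5.95 in MxCre, 5.79 and 5.89 in Ptpn11D61Y/+ and 6.42, 6.24 and 6.25 in S3 540, 815 and 768 LSK libraries. In BM CD11b+ libraries it was at 10.29 and 9.51 in MxCre, 7.55 and 7.33 in Ptpn11D61Y/+ and 8.68, 10.39 and 6.39 in S3 540, 815 and 640. In the spleen the values were 10.09 and 9.57, 7.49 and 8.57, and 8.47, 10.15 and 6.32. Only the 640 libraries reached into the LSK range, and the log2 fold changes were 2.88 (0.564, 0.000512) and 3.00 (0.568, 0.00036), 7.37-fold and 8.01-fold. Atp5l, subunit g of the membrane part, rose by 2.53 (0.39, 6.97e-05) and 2.58 (0.391, 5.22e-05). Atp5b, the catalytic subunit, had medians of 9.39, 9.55 and 9.26 log2 CPM in LSK, BM CD11b+ and spleen CD11b+ libraries and log2 fold changes of -0.23 (0.238, 0.431) and -0.30 (0.238, 0.282), with overlapping ranges. Atp5a1 had 0.13 and -0.08. The 3 genes of the membrane c ring differed: Atp5g3 rose by 1.22 and 0.95, whereas Atp5g1 (0.06 and 0.17) and Atp5g2 (-0.17 and 0.29) did not pass. In all, 10 of 17 genes rose in BM and 11 in the spleen, where Atp5s, a coupling factor, fell by 0.87 (0.335, 0.0348).

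**Figure D2:**
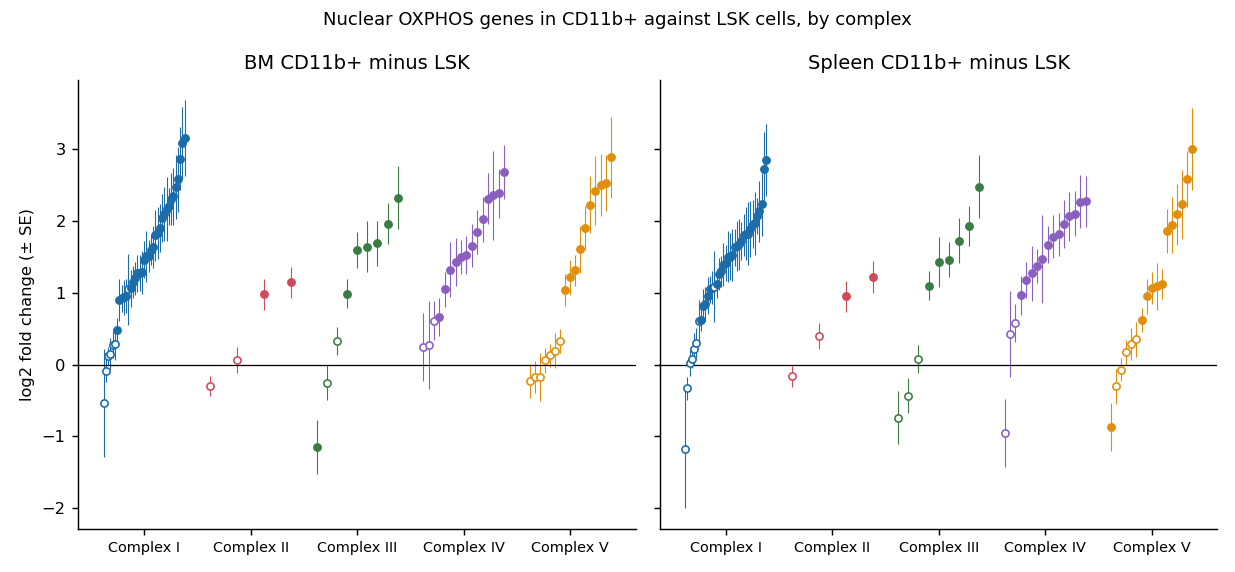
Log2 fold change with its standard error for the 83 genes in BM CD11b+ (left) and spleen CD11b+ cells (right) against LSK cells, ordered by size within each complex; filled points have an adjusted p under 0.05. Each panel has 61 genes higher and 1 lower, and Uqcrc2 of complex III is the lowest filled point in BM.

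The size of the difference followed the length of the coding sequence, among these genes and among others. For the 21 genes with a coding sequence under 300 bases the median log2 fold change was 1.96 for BM and 1.81 for the spleen, and for the 12 of 900 bases or more it was 0.13 and -0.03. Of these 12, 2 were higher in each fraction (16.7%), against 22.1% and 23.5% of other protein-coding genes of that length. Between the shortest and longest groups, the 26 genes from 300 to under 450 bases had medians of 1.48 and 1.68, and the 24 genes from 450 to under 900 bases 1.15 and 1.11. Other protein-coding genes showed a like gradient at a lower level: 1.17 and 1.32 for 281 genes under 300 bases, 1.02 and 0.91 for 757 genes, 0.49 and 0.48 for 3051 genes, and -0.41 in both fractions for 10952 genes of 900 bases or more. In the groups under 900 bases, shortest first, 90.5%, 76.9% and 83.3% of the OXPHOS genes were higher in BM, against 58%, 52.8% and 42.5% of the others. In the spleen these shares were 85.7%, 76.9% and 87.5%, against 58.7%, 52.7% and 42.4%. Across the 83 genes Spearman's rho between coding length and log2 fold change was -0.53 and -0.54, and across 15041 other protein-coding genes -0.32 and -0.30. These are correlations across genes of the same libraries, which are not independent. After a smooth trend over GC content and exon length had been removed, the medians of the 83 genes were 1.03 and 0.97. A list of 14 core subunits, drawn up after the values had been seen, holds the nuclear-encoded core subunits of complex I, Sdha, Sdhb, Cyc1, Uqcrfs1 and the alpha, beta and gamma subunits of ATP synthase, without the c ring. These had a median of 0.41 in BM with 7 higher, and the 69 others a median of 1.53 with 54 higher. In the spleen the medians were 0.63 with 8 higher and 1.47 with 53 higher. The median coding lengths of the 14 and of the others were 934.5 and 384 bases.

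Libraries differed in this gradient too. Among other protein-coding genes, the median level of those under 300 bases minus that of those of 900 bases or more was between -1.56 and -1.23 in the 7 LSK libraries. In CD11b+ libraries it ran from -0.98 (spleen S3 640) and -0.78 (BM S3 640) to 1.03 (BM MxCre 1). The same difference for the OXPHOS genes was between -1.29 and -1.14 in LSK libraries and ran from -0.86 in spleen S3 640 and -0.59 in BM S3 640 to 1.42 in spleen MxCre 1. RNA integrity is not given in the labels, and the part of this gradient in the cell type difference was not tested beyond the trend and length groups above.

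**Figure D3:**
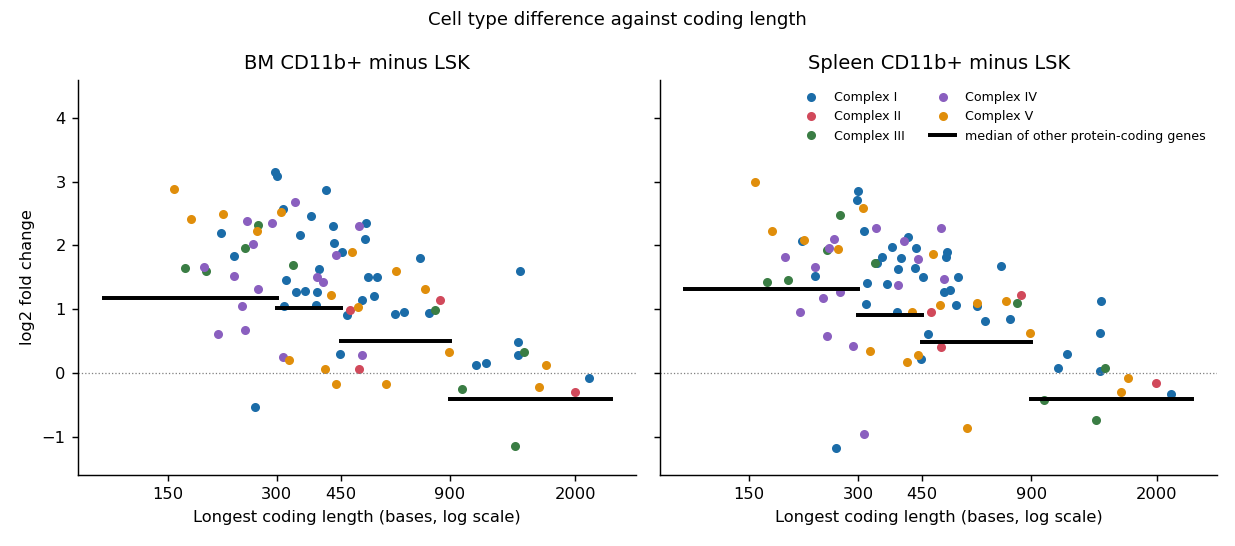
Log2 fold change of each of the 83 genes in BM CD11b+ (left) and spleen CD11b+ cells (right) against LSK cells, by the length of its longest coding sequence (bases, log scale), coloured by complex; black bars are medians of other protein-coding genes in the same length groups. The 83 genes fall with length, from a median of 1.96 under 300 bases to 0.13 at 900 bases or more in BM, and other genes fall from 1.17 to -0.41.

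Within single genotypes the direction was the same and the counts were smaller. In BM CD11b+ against LSK cells, MxCre libraries alone gave 58 genes higher and 1 lower at a median of 2.0 (16.6% of all genes higher), Ptpn11D61Y/+ libraries 11 higher at 1.02 (10.8%) and S3 libraries 43 higher at 1.14 (14.4%). For the spleen the values were 1.69 with 53 higher (19.2%), 1.22 with 19 higher (10.4%) and 1.13 with 40 higher (15.8%). Scaling by library size alone lowered the medians to 0.47 in BM and 0.52 in the spleen, with 40 genes higher and 18 lower in BM and 42 and 13 in the spleen, where 13.8% of all genes were higher and 50.4% lower in BM and 16.3% and 47.9% in the spleen, and moved the medians of all genes to -0.99 and -0.90.

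Lists of genes around the complexes are set here against all genes, of which 26.8% were higher and 31.6% lower in BM CD11b+ cells and 28.3% and 31.6% in the spleen. Of 14 citric acid cycle genes, 4 were higher and 7 lower in BM CD11b+ cells (median -0.46) and 4 higher and 5 lower in the spleen (-0.25). Mdh2, malate dehydrogenase, rose by 0.79 and 1.56, and Idh2 and Suclg2 fell by 1.75 and 2.09 in BM and by 1.88 and 1.47 in the spleen. Of 77 mitochondrial ribosomal protein genes, 38 and 39 were higher and 9 and 9 lower (medians 0.56 and 0.51). Assembly factors of the complexes, 48 of them, had 14 and 20 higher and 9 and 9 lower (medians 0.16 and 0.31), and 19 glycolysis genes had 9 and 8 higher and 3 and 3 lower (0.34 and 0.31), with the lactate exporter Slc16a3 up by 4.72 and 4.29. Among 9 genes for cytochrome c and carriers, 3 and 4 were higher and 1 and 0 lower. Atpif1, the inhibitor of ATP synthase, rose by 2.05 and 0.80, while Cycs, cytochrome c itself, had 0.22 and 0.38 and did not pass. Of 11 tested genes of mitochondrial DNA, mt-Co2 and mt-Nd6 were higher in both fractions and mt-Nd3 in the spleen, with medians over the 11 of 0.29 and 0.90.

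Of 17 regulators of these genes, 10 were lower and 2 higher in BM CD11b+ cells, and 8 were lower and 2 higher in the spleen. In each, 31.6% of all genes were lower. Myc fell by 3.42 and 2.80, the coactivator gene Pprc1 by 1.98 and 1.63 and Polrmt, the mitochondrial RNA polymerase, by 1.64 and 1.43. The GABP subunit genes had -0.68 (Gabpa) and -0.87 (Gabpb1) in BM, both past the threshold, and -0.54 and -0.91 in the spleen, where Gabpb1 passed. Nrf1 rose by 0.81 in BM and had 0.09 in the spleen, Esrra, which encodes ERR alpha, rose by 1.20 and 1.57, and Yy1 had 0.03 and -0.08.

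The comparison of S3 with MxCre LSK libraries asked whether the genes differ in leukemic stem and progenitor cells. In the fit of all 21 libraries, 0 of the 83 genes passed, with 1 at an unadjusted p under 0.05 (3.97% of all genes), and 6 of 19555 genes did (0.0307%, with 0.00511% higher and 0.0256% lower). DESeq2 and limma-voom also called 0 (0.655% and 0.0972% of all genes), with 2 and 1 at an unadjusted p under 0.05 (5.68% and 6.21%). That fit shares 1 estimate of spread between the LSK libraries and the far more variable CD11b+ libraries, and the part of this in the count of 0 was not tested. Of the 83 log2 fold changes, 79 were above 0 (95.2%, against 50.4% of all genes). The median of the 83 was 0.48, with quartiles of 0.36 and 0.55, while the median of all genes was 0.01. All S3 libraries exceeded both MxCre libraries for 77 genes (29.1% of all genes) and were under both for 2, Ndufb2 and Cox7a1 (28.9%). For 76 genes every S3 library lay above all 4 control libraries (22.4%), and for 0 below (18.7%). With only the 5 libraries compared in the fit, as planned, 61 genes were higher and 0 lower, where 26.8% of all genes passed in either direction. Ptpn11D61Y/+ and MxCre LSK libraries, both controls, differed in 0 of the 83 genes in the fit of all libraries, where the median was 0.04. Of all genes 0.0614% passed there, all lower. At an unadjusted p under 0.05 were 0 of the 83 by edgeR, DESeq2 or limma-voom, against 1.69%, 2.18% and 2.29% of all genes.

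A fit of the 7 LSK libraries alone, chosen after the data had been seen, called 69 of the 83 genes higher and 0 lower in S3 against MxCre (edgeR's quasi-likelihood test over 18057 genes, 4 residual degrees of freedom), with 16.3% of all genes higher and 15% lower. It called 65 higher and 0 lower in S3 against Ptpn11D61Y/+ (19.5% and 17.6% of all genes). Between the control groups it called 0, against 0.454% of all genes higher and 1.31% lower. The S3 libraries serve in both of the first comparisons. Changes were small, a median of 1.39-fold against MxCre and 1.33-fold against Ptpn11D61Y/+, while the control groups differed by a median of 1.03-fold. Against MxCre the called values lay between 0.24 and 0.74 on the log2 scale, and all complexes took part: 30 of 37 genes of complex I, 4 of 4 of complex II, 8 of 9 of complex III, 11 of 16 of complex IV and 16 of 17 of complex V. The 3 S3 libraries each had 77 genes above all 4 controls (34.5%, 33.1% and 36.3% of all genes for S3 540, 815 and 768). All 4 control LSK libraries and LSK S3 540 carried Y-linked transcripts, while S3 815 and S3 768 held 39460 and 88850 counts of Xist and 0 of Eif2s3y. Sex thus went largely with the groups, and its part in the difference was not tested. When MxCre 1 or MxCre 2 is left out of this fit, 1 MxCre library remains and the other groups give the spread. The count depended on the controls: it was 7 without MxCre 1 (Ndufab1, Uqcrq, Cox6c, Cox7a2, Cox7b, Atp5j and Atp5o, with log2 fold changes of 0.43 to 0.59) and 37 without MxCre 2, where 2.33% and 3.92% of all genes were higher, and 67, 65 and 63 without S3 540, 815 and 768, where 18.1%, 15.2% and 12.6% were.

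**Figure D4:**
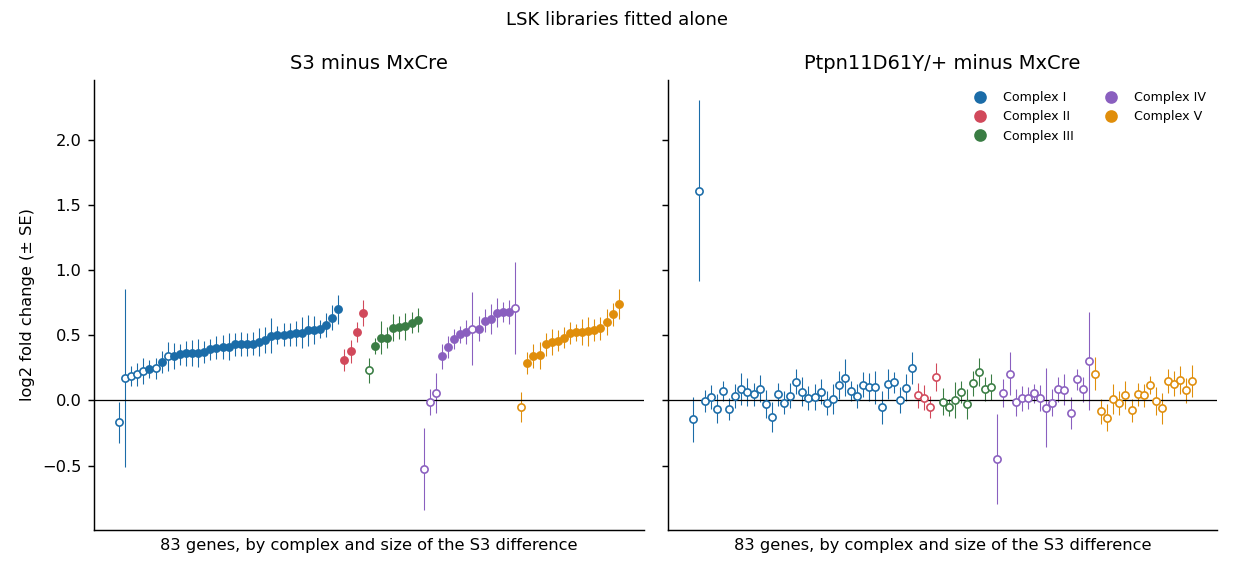
Log2 fold change with its standard error for the 83 genes in S3 (left) and Ptpn11D61Y/+ (right) against MxCre LSK cells in the fit of the 7 LSK libraries alone, ordered by complex and by the size of the S3 difference in both panels; filled points have an adjusted p under 0.05. In S3, 69 genes are higher and 14 do not pass, and between the controls 0 pass.

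Values per library show how evenly the genes moved in LSK cells. Cox5a (chromosome 9, 57521274 to 57532426), a nuclear subunit of complex IV, was at 4.37 and 4.71 log2 CPM in MxCre, 4.42 and 4.47 in Ptpn11D61Y/+ and 5.10, 5.30 and 5.28 in S3 540, 815 and 768. S3 exceeded the controls by more than they differed among themselves, and Cox5a rose by 0.67 against MxCre (standard error 0.114, adjusted p = 0.00548) and by 0.77 against Ptpn11D61Y/+ (0.114, 0.00327). Atp5g1, a c-ring gene (chromosome 11, 96068852 to 96075670), was at 6.01 and 6.07, 6.17 and 6.18, and 6.99, 6.58 and 6.76, and rose by 0.74 (0.115, 0.00433) and 0.59 (0.114, 0.00729). Here S3 540 was highest. Cyc1 (chromosome 15, 76343523 to 76346260) was at 6.21 and 6.29, 6.31 and 6.36, and 7.02, 6.76 and 6.82, and rose by 0.62 (0.0908, 0.00376) and 0.51 (0.0905, 0.00539). Its groups did not overlap. Atp5b was at 9.25 and 9.39, 9.31 and 9.31, and 10.01, 9.72 and 9.82, and rose by 0.52 (0.101, 0.0083) and 0.53 (0.101, 0.00708).

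Large and small subunits both rose in S3 LSK cells. Sdha was at 7.67 and 7.76, 7.73 and 7.75, and 8.16, 7.91 and 8.0, a rise of 0.31 (0.0871, 0.0317) and 0.27 (0.087, 0.0429). Ndufs1 was at 5.68 and 5.64, 5.66 and 5.73, and 6.13, 5.88 and 6.09, a rise of 0.37 (0.0838, 0.0145) and 0.33 (0.0837, 0.0197). Atp5e rose by 0.43 and 0.45. By coding length, in the fit of all 21 libraries, the medians of the 83 genes against MxCre were 0.51, 0.51, 0.43 and 0.43 from the shortest group to the longest. Other protein-coding genes had 0.15, 0.20, 0.15 and -0.0022. With the trend over GC content and exon length removed from that fit of all libraries the median was 0.54. Other rises against MxCre were 0.70 for Ndufs5, 0.68 for Cox7b and for Cox7a2, 0.67 for Sdhd, 0.53 for Sdhb, 0.42 for Uqcrfs1 and 0.41 for Cox4i1. In the fit of the LSK libraries alone, the 14 genes that did not pass included the restricted paralogs Cox7a1 (-0.53), Cox6b2 (0.06), Ndufa4l2 (0.17), Cox4i2 (0.55) and Cox6a2 (0.71). They also included Cox7a2l (-0.01), Ndufb2 (-0.17), Atp5s (-0.05), Ndufb11 (0.19), Ndufv3 (0.20), Ndufa13 (0.23), Uqcrh (0.23) and Ndufv1 (0.34). Cox7a2l was at 6.92 and 7.05, 7.03 and 7.04, and 7.10, 7.0 and 6.83, so that its groups overlapped.

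**Figure D5:**
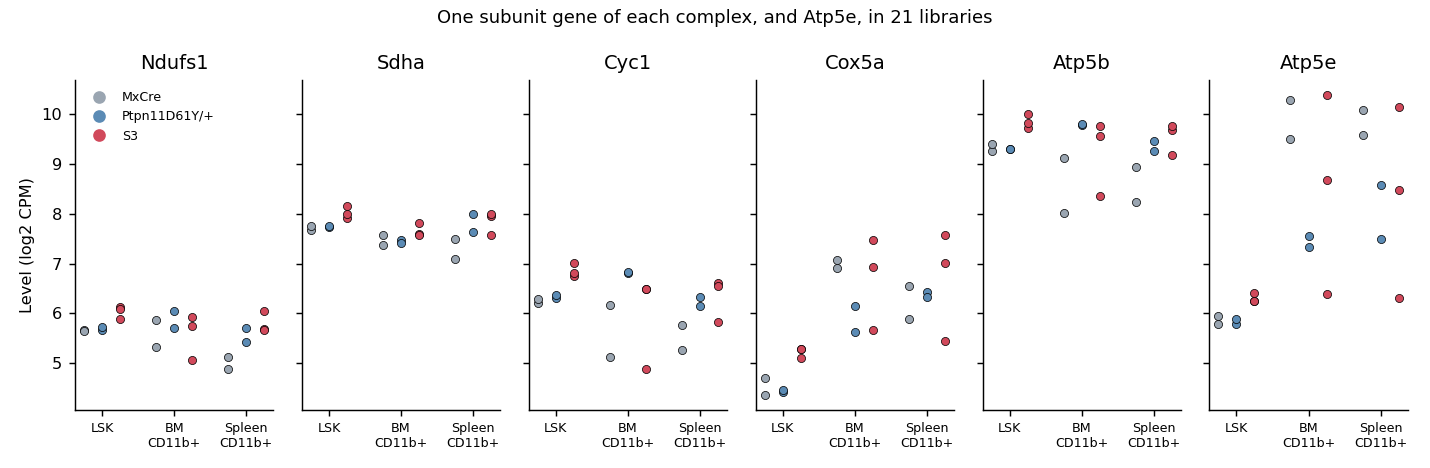
Levels (log2 CPM) of Ndufs1, Sdha, Cyc1, Cox5a, Atp5b and Atp5e in the 21 libraries, 1 point a library, coloured by genotype. In LSK cells the S3 points of each gene lie above the control points, and in CD11b+ cells Atp5e spreads from 6.32 to 10.39 while Sdha stays between 7.1 and 8.0.

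Some neighbouring gene lists also had more genes higher than lower in S3 LSK cells, while no tested gene of mitochondrial DNA passed. In the same fit, against MxCre, where 16.3% of all genes were higher and 15% lower, 60 of 77 mitochondrial ribosome genes were higher and 0 lower, as were 10 of 14 citric acid cycle genes and 5 of 9 genes for cytochrome c and carriers (0 lower in each), with Cycs up by 0.94 and the ADP/ATP carrier gene Slc25a5 by 0.71. Of 48 assembly factors 17 were higher and 1 lower (Cox20, -0.97), and of 19 glycolysis genes 11 were higher, among them Ldha (0.81), and 2 lower. Fh1, fumarase, rose by 0.70 and Cs, citrate synthase, by 0.50. Of 10 tested genes of mitochondrial DNA 0 passed, with a median of 0.15 and values of up to 0.42, and against Ptpn11D61Y/+ 0 passed as well, with values down to -0.32. Regulators had 3 higher (Tefm 0.53, Pprc1 0.28 and Esrra 0.26) and 2 lower (Ppargc1a -1.79 and Gabpb1 -0.29). Nrf1 had 0.19 and Myc 0.17, which did not pass against MxCre, and both passed against Ptpn11D61Y/+ (0.37 and 0.40).

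The makeup of the LSK libraries moved with the groups. The 16 proliferation genes summed to 2918 and 3166 CPM in MxCre, 2621 and 2568 in Ptpn11D61Y/+ and 4332, 3776 and 4073 in S3 540, 815 and 768. In the fit of the LSK libraries alone, 12 of 16 were higher in S3 than in MxCre, where 16.3% of all genes were. Against Ptpn11D61Y/+ 16 of 16 were higher, with the share of all genes as given above for that fit. Stem and progenitor markers summed to 1693 and 1732, 1908 and 1960, and 1437, 1309 and 1286 CPM, and Kit was at 432 and 430, 486 and 533, and 348, 288 and 319 CPM. Immature neutrophil genes, led by Mpo, summed to 2063 and 1657 in MxCre, 2771 and 2724 in Ptpn11D61Y/+ and 4999, 4463 and 6187 in S3. In the same fit 6 and 4 of 7 were higher in S3, to be set against the same shares of all genes. Mature neutrophil genes, led by S100a9, were highest in MxCre, at 3255 and 2781 CPM, against 422 and 349 in Ptpn11D61Y/+ and 829, 1664 and 1110 in S3. Erythroid genes summed to 1719 and 991 CPM in MxCre and to between 156 and 364 in the other 5 LSK libraries. Megakaryocyte genes, led by Itga2b, summed to 191 and 181 CPM in MxCre, 495 and 383 in Ptpn11D61Y/+ and 445, 318 and 425 in S3, and B cell genes, nearly all Ighm, to 10995 and 5198, 22821 and 20753, and 10689, 8968 and 3300. None of the markers in these lists was at 0 in an LSK library. The part of these changes in makeup in the OXPHOS difference was not tested.

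In CD11b+ cells no OXPHOS gene passed the test between S3 and MxCre libraries. In BM CD11b+ cells 0 of 83 genes passed, with 2 at an unadjusted p under 0.05 (15.5% of all genes), and 0 of all 19555 genes did (0%). DESeq2 and limma-voom called 0 as well (4.93% and 0.0972% of all genes), with 3 and 1 at an unadjusted p under 0.05 (19.5% and 11.1%). The median was -0.31, with 64 genes below 0, and that of all genes 0.18. All S3 libraries were below both MxCre libraries for 5 genes, Ndufa1, Ndufa7, Ndufb4, Cox7a1 and Cox7c (5.49% of all genes), and above for 0 (5.74%). In spleen CD11b+ cells 0 genes passed, against 4.19% of all genes (1.51% higher and 2.67% lower), with 3 at an unadjusted p under 0.05 (25.3% of all genes), and the medians were -0.04 and 0.32. The groups did not overlap for 12 genes that were higher (20.2% of all genes) and for 1, Cox7a1, that was lower (12.9%). DESeq2 called Sdha and Ndufs1 higher, where it called 10% of all genes higher, with 8 of the 83 at an unadjusted p under 0.05 (30.9% of all genes), and limma-voom called 0 (6.79% of all genes), with 3 (24.3%). Leukemic animals differed among themselves by more than the groups did: in the spleen the median of the 83 genes was 7.59 in S3 815 and 5.85 in S3 640, with the MxCre libraries between them. Mature neutrophil markers summed to 73847 and 141374 CPM in MxCre and 100933, 45438 and 44833 in S3 540, 815 and 640 in the spleen, and to 102662 and 149608 and to 143336, 123788 and 31188 in BM. Erythroid markers summed to 3428 and 1155 CPM in spleen MxCre and to 14654, 15940 and 29877 in spleen S3 540, 815 and 640 libraries, so that these groups did not overlap. Nor did they overlap in the spleen for proliferation genes, at 800 and 845 CPM in MxCre and 1365, 1126 and 3918 in S3. Stem and progenitor markers did not overlap there either, at 158 and 130 against 352, 582 and 166 CPM, with up to 3 of 12 at 0. The part of these markers in the values was not tested. Leaving aside genes that averaged under 3 log2 CPM, Cox6a2 (1.67, standard error 1.05) and Uqcrc2 (1.58, 0.653) had the highest values in BM, and Uqcrc2 (1.32), Atp5b (0.93), Cyc1 (0.83) and Ndufs1 (0.81) in the spleen, while Ndufa3 had the lowest in both (-0.94 and -1.30). Tests of the S3 change in CD11b+ minus that in LSK cells called 0 genes in BM and 0 in the spleen, with medians of -0.73 and -0.51 (0% and 0.00511% of all genes).

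With TMM scaling, most OXPHOS genes had negative log2 fold changes in Ptpn11D61Y/+ against MxCre CD11b+ cells, and none passed the test. In BM the median was -0.86, 70 of 83 genes were below 0, and 0 passed (0% of all genes). At an unadjusted p under 0.05 were 3 genes higher and 25 lower, against 2621 and 1798 of all 19555 genes. For 59 both Ptpn11D61Y/+ libraries lay below both MxCre libraries (19% of all genes), and for 7 above (38.7%). In the spleen the median was -0.47, 61 genes were below 0, 5 had an unadjusted p under 0.05 (24.7% of all genes), and the groups did not overlap, with the lower value in Ptpn11D61Y/+, for 45 (21.4%) and with the higher value for 16 (34.5%), while 5.11% of all genes passed the test (2.1% higher and 3.02% lower). DESeq2 called 5 genes in BM (Uqcrc2 higher and Ndufa3, Ndufa5, Ndufab1 and Cox7a1 lower, where it called 4.24% of all genes higher and 5.29% lower) and 2 in the spleen (Sdha higher and Cox7a1 lower, against 9.6% and 7.69%). Limma-voom called 0 in both, against 0.0358% of all genes higher and 0% lower in BM and 4.32% and 4.33% in the spleen. By limma-voom 26 and 5 genes had an unadjusted p under 0.05 (21.5% and 26.4% of all genes). With scaling by library size alone the medians were -0.70 in BM and 0.15 in the spleen. Again the sign followed length: in BM the median was -1.21 for genes under 300 bases and 0.28 for those of 900 bases or more, and among other protein-coding genes -0.68 and 0.39. With genes under 3 log2 CPM again set aside, Atp5e, Ndufa2, Ndufa5 and Ndufa3 had the lowest values in BM, from -2.51 to -2.36, and Uqcrc2 (2.46), Atp5b (1.12) and Cyc1 (1.09) the highest. The makeup of the libraries moved with the groups, above all in the spleen. There the 12 mature neutrophil markers, led by S100a9, summed to 4999 and 9210 CPM in Ptpn11D61Y/+ against 73847 and 141374 in MxCre, and the 10 B cell markers, led by Ighm, to 21010 and 7681 against 2523 and 534, with 1 of the 10 at 0 in both Ptpn11D61Y/+ libraries and in MxCre 1. In BM the mature neutrophil sums were 150392 and 112205 against 102662 and 149608, and the B cell sums 5636 and 9120 against 1381 and 3978. Spleen Ptpn11D61Y/+ 1 also had 3.65% of its counts from mitochondrial DNA, against at most 0.907% in any other library, and 4753 counts of Xist with 0 of Eif2s3y, while the other Ptpn11D61Y/+ libraries carried Eif2s3y. Without it 1 Ptpn11D61Y/+ library is left in the spleen, so no count of passing genes is read from that comparison. The part of this makeup in the difference was not tested. In BM the MxCre libraries include BM MxCre 1, with few genes detected, and BM MxCre 2, with transcripts of both sexes, and the part of these libraries in the difference was not tested beyond leaving out each in turn.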

How the data were processed

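RNA of 21 libraries (3 cell types, 3 genotypes) was analysed. Per the methods and labels, the authors trimmed reads with Trim Galore 0.6.5, mapped them to GRCm38 with STAR 2.5.3a and deposited raw counts per Ensembl gene, 1 table a library. The counting program, its annotation and its use of strand are not given in the sources used here. Symbols were matched for 45143 of 45706 identifiers.

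Here edgeR 4.0.16 in R 4.3.3 was run on these counts with filterByExpr (minimum count 10, minimum total 15), TMM, 1 robust quasi-likelihood fit with a coefficient for each of the 9 groups (12 residual degrees of freedom) and Benjamini-Hochberg adjustment at 0.05 over 19555 genes. A standard error is the estimate over the root of its F statistic. Values in brackets after a log2 fold change are its standard error and adjusted p, and paired values are BM then spleen unless stated. Total counts ran from 34992610 to 104509425 per library. Levels per kilobase use a pseudocount of 0.01 CPM. A gene was counted as expressed in a cell type at a median of at least 2 CPM.

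The genes and lists were chosen with earlier results of these data known. Named were catalytic subunits and paralogs, and the 4 largest rises and falls per comparison among genes averaging 3 log2 CPM or more. Other genes were named after their values had been seen, and some results for single genes are not reported here.

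Alternatives were DESeq2 1.42.0, limma-voom (limma 3.58.1), other scalings, filters and samples, a smooth trend over GC content and exon length (mgcv 1.9.3), blocks by number and each library left out. Deviations from group means of libraries with the same animal number correlated at 0.41 (815) and 0.33 (640) between BM and spleen, at 0.07 to 0.11 for 540, and at -0.10 and 0.05 between LSK and CD11b+ cells of 815. For control libraries with the same number within a genotype they lay between -0.17 and 0.06.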

Additional observations from a re-analysis of the deposited data

How the results depend on the processing

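The median difference of the OXPHOS genes between CD11b+ and LSK cells stayed above 0 in all settings tried. Over other tools, filters and samples 58 to 64 genes were higher and 1 or 2 lower in BM, and 59 to 65 higher and 0 to 6 lower in the spleen, where between 16.1% and 35.2% of all genes were higher. Library size alone gave 40 higher and 18 lower in BM (13.8% and 50.4% of all genes) and 42 and 13 in the spleen (16.3% and 47.9%), with 24 and 23 genes below 0. Within MxCre, S3 and Ptpn11D61Y/+ libraries, 58, 43 and 11 genes were higher in BM (1, 0 and 0 lower) and 53, 40 and 19 in the spleen (0 lower). Leaving out each library gave 60 to 63 calls in either direction in BM and 59 to 67 in the spleen (47.1% to 63% and 49.6% to 63.2% of all genes). Among called genes that the naming rule covers, 2 values reversed, those of Ndufa4 in BM by library size alone (-0.22) and of Uqcrc2 in BM within Ptpn11D61Y/+ libraries (0.019).

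For S3 against MxCre in LSK cells the count of 0 became 61 higher with only the groups compared (13.2% of all genes higher) and, in settings added after the data had been seen, 69 with the LSK libraries fitted alone (16.3%), 60 with these scaled by library size alone (11.3%), and 7 to 67 with each library left out of that fit (7 without MxCre 1, against 2.33%, and 37 without MxCre 2, against 3.92%). The fit of all libraries gave 0 whichever library was left out. Leaving out MxCre 1 or MxCre 2 leaves 1 MxCre library, so the other groups then give the spread.

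Between spleen and BM CD11b+ cells, where 1 gene was lower (6.56% of all genes higher and 7.4% lower), calls were 3 by DESeq2 (all lower, against 9.4% of all genes higher and 12.3% lower), 0 by limma-voom, by library size alone, without the filter, with only the groups compared and within S3, MxCre or Ptpn11D61Y/+ libraries (from 0.0563% to 12.3% of all genes in either direction), 3 without the 3 libraries with the fewest detected genes (Cox6a2 and Cox6b2 lower, Cox4i2 higher in the spleen, against 20.7%), and 0 to 4 leaving out each library (6.26% to 21.8%), with 4 without spleen S3 640 (Cox6a2 and Cox6b2 lower, Ndufa7 and Cox7a2l higher), 3 without BM MxCre 1 (Cox6a2 and Cox6b2 lower, Cox4i2 higher) and 2 without BM S3 640 (Cox6a2 and Ndufv3, both lower).

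Between genotypes in CD11b+ cells, DESeq2 called 2 genes for S3 in the spleen (17.4% of all genes in either direction), 5 for Ptpn11D61Y/+ in BM (9.53%) and 2 in the spleen (17.3%). Library size alone gave 1 higher for S3 (Sdha, against 3.38% of all genes higher) and 5 higher for Ptpn11D61Y/+ (among them Sdha, Atp5a1, Atp5g1 and Atp5g2, against 7.31%) in the spleen. Leaving out each library gave 0 to 2 for S3 in BM and 0 to 5 for Ptpn11D61Y/+ in BM, the highest both without BM MxCre 2 (Cox4i2 and Cox6a2 for S3, and these with Atp5b, Uqcrc1 and Uqcrc2 for Ptpn11D61Y/+), where 9.75% and 13.6% of all genes were called. The causes were not tested.

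With animal or number as a replicate block, 63 and 65 genes were called against LSK cells in BM and spleen. Of all genes 24.4% were then higher and 33.1% lower in BM, and 26.3% and 33.5% in the spleen. Between spleen and BM 1 gene was called (Ndufv3, with Cox6a2 no longer called), against 6.05% of all genes higher and 5.57% lower. For Ptpn11D61Y/+ against MxCre 0 were called, where at most 1.41% of all genes were higher and 2.19% lower, in the spleen. The block changed no count by over 1.5 times. For S3 against either control a block could not be fitted. No paired analysis was possible because S3 libraries share no numbers with MxCre or Ptpn11D61Y/+ libraries. With 2 or 3 libraries a group and CD11b+ replicates that differ widely, the precision in CD11b+ cells is low.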
